A study of Mus musculus with 2 samples.

Results

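At postnatal day 7 (P7), 157 of 961 cell barcodes from mouse aortic and mitral valves carried transcripts of Matn4, Col9a1, Col11a1 or Col11a2 on a fibroblast matrix background, and these 157 barcodes are described here. They were chosen by a rule on raw counts of unique molecular identifiers (UMIs, each standing for 1 captured transcript). At least 1% of the UMIs of a barcode had to come from Col1a1, Col1a2, Col3a1 and Dcn together. At least 2 UMIs had to come from the 4 markers Matn4, Col9a1, Col11a1 and Col11a2, and at most 2 from Chad, Angptl7, Fibin and Chrdl1. The first condition alone held for 722 P7 barcodes, here called matrix barcodes. The remaining 565 matrix barcodes served for comparison and fall into 2 kinds. Of these, 412 had at most 1 marker UMI and at most 2 UMIs of the Chad set (marker-poor barcodes), and 153 had more than 2 UMIs of the Chad set (Chad/Fibin barcodes). Since 128 of the 153 Chad/Fibin barcodes also had at least 2 marker UMIs, the 4 markers do not set the 157 barcodes apart from them.

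The study made 1 Drop-seq library, in which droplets capture the 3' ends of transcripts from single cells, at P7 and 1 at postnatal day 30 (P30). Both came from C57BL/6J mice, and the labels name no other allele, no agent and no number of animals. With 1 library per age no test across animals was possible. Levels are given per 1000000 UMIs summed over the barcodes of a group (CPM), and all intervals are at 95% and cover counting error only.

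Valve interstitial cells are fibroblast-like cells that make and turn over the layered matrix of the leaflets, and much of that matrix is laid down after birth. Type I and III collagens form the fibrils. Collagen XI is built into fibrils with type II or type I collagen and limits their diameter, collagen IX sits on their surface, and matrilins are adaptor proteins that link collagens to proteoglycans. Collagen IX, collagen XI and matrilins are best known from cartilage, and heart valves share several matrix genes and transcription factors, such as Sox9 and Scx, with cartilage and tendon.

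The 4 marker genes lie on different chromosomes of the mm10 assembly: Matn4 (matrilin 4) on chromosome 2, 164389393 to 164405160, minus strand; Col9a1 (an alpha chain of collagen IX) on chromosome 1, 24177610 to 24252684, plus strand; Col11a1 on chromosome 3, 114030540 to 114220718, plus strand; and Col11a2 on chromosome 17, 34039437 to 34066685, plus strand (the last 2 are alpha chains of collagen XI). Because the rule read these 4 genes together, their promoter windows are shown, from RefSeq on GRCm38.p6, 250 bases before to 50 bases after the most upstream annotated start, 5′ to 3′ on the strand of the gene. Capitals mark CAAAG or its reverse complement CTTTG, letters shared by the binding sites of HMG-box factors such as SOX9 and LEF1.
Matn4 (chr2:164405111-164405410, minus strand): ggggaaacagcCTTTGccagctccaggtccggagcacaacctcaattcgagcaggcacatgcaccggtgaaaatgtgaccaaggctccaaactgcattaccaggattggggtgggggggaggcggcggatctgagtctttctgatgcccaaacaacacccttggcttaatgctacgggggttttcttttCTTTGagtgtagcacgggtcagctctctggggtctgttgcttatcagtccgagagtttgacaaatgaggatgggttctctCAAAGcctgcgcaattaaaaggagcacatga
Col9a1 (chr1:24177360-24177659, plus strand): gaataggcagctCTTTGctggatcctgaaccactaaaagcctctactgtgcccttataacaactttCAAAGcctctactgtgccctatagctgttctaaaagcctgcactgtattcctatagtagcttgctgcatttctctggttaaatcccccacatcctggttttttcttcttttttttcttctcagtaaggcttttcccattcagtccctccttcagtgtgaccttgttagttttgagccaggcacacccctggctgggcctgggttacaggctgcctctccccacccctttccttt
Col11a1 (chr3:114030290-114030589, plus strand): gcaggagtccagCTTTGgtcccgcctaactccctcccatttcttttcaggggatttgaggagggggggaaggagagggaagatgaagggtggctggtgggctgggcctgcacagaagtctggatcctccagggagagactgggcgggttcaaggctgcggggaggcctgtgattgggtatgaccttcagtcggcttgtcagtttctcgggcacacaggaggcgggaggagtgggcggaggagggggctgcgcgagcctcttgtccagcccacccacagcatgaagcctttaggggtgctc
Col11a2 (chr17:34038888-34039187, plus strand): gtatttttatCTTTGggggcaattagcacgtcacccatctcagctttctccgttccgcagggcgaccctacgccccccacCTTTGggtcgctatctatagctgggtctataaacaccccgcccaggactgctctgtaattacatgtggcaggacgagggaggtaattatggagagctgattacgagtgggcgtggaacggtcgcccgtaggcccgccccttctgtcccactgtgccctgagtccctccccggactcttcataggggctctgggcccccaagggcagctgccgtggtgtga
The Matn4 window held 3 such matches, the Col9a1 window 2, the Col11a1 window 1 and the Col11a2 window 2, on either strand. Of 32851 RefSeq windows of the same length, 53.9% held at least 1. The GC-box letters GGGCGG, either strand, occurred 2 times each in the Col11a1 and Col11a2 windows and in none of the Matn4 and Col9a1 windows, against 35.7% of all windows with a match. The TATA-box letters TATAAA, either strand, occurred in the Col11a2 window alone of the 4, against 13.6% of all windows. These are letter matches, and no binding was measured. Matn4 and Col9a1 have 2 annotated starts each in this table, and 3' counting does not tell which was used. The Col11a2 window ends at 34039187, before the gene start of 34039437 given above, because the RefSeq start lies upstream of that position. The matches in that window would differ for a window at the other start.

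The 157 barcodes held 508239 UMIs, between 767 and 13521 per barcode with a median of 2413. Marker-poor barcodes were shallower, with a median of 1768.5 UMIs, and Chad/Fibin barcodes deeper, with a median of 3114. The rule counts UMIs, so a shallow barcode is less likely to reach 2 marker UMIs and also less likely to exceed 2 UMIs of the Chad set. Of the 157, 76 (48.4%) held a UMI of the Chad set. Under 1500 UMIs lay 45 of the 157 and 22 of the 153 Chad/Fibin barcodes. The part of shallow barcodes of the Chad/Fibin kind in the levels of the 157 was not tested. No barcode was shared between the P7 and P30 libraries. Among the 157, 44 barcodes ended in the base N. Markers of other cell types were low. The 14 endothelial markers summed to 348 CPM against 3282 in the 239 P7 barcodes under 1% matrix, 383 in marker-poor and 249 in Chad/Fibin barcodes, with Cdh5, Emcn, Tie1, Vwf and Esam at 0. The 12 macrophage markers summed to 39.4 CPM against 2727, with C1qa, C1qc, Tyrobp and Csf1r at 0. The 9 melanocyte markers summed to 19.7 CPM against 3016. The 8 interstitial markers outside the rule summed to 20742 CPM, against 20076 in marker-poor, 15083 in Chad/Fibin and 6975 in the barcodes under 1% matrix. Red cell transcripts were common in every group: the 8 erythroid markers summed to 9873 CPM, against 6702 in marker-poor and 15280 (14975 to 15588) in Chad/Fibin barcodes. The order of the 3 groups in red cell transcripts is thus the same as for many genes below, and its part in those results was not tested.

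The name under which these barcodes were proposed, collagen-rich interstitial cells, was met only in part. They did carry interstitial matrix genes, with Col1a2 at 24032 CPM (23608 to 24462) and Dcn, the proteoglycan decorin, at 8929 CPM (8671 to 9193). Col1a1 stood at 6906 CPM (6679.6 to 7139) against 6917 CPM in all other matrix barcodes, and Col1a2 at 24375 CPM there. Col3a1 was lower, at 9507 against 11732 CPM. Within the comparison group, however, Col1a2 ran from 12124 CPM in marker-poor to 44868 CPM in Chad/Fibin barcodes. Type I collagen took a median of 3.23% of the UMIs of a Matn4/Col9a1 barcode (0.389% to 16.5%), against 1.40% in marker-poor and 5.77% in Chad/Fibin barcodes. They were therefore richer in type I collagen than marker-poor and poorer than Chad/Fibin barcodes, and they are called Matn4/Col9a1 barcodes below. The rule used these collagens, so these values only describe the groups.

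**Figure D1:**
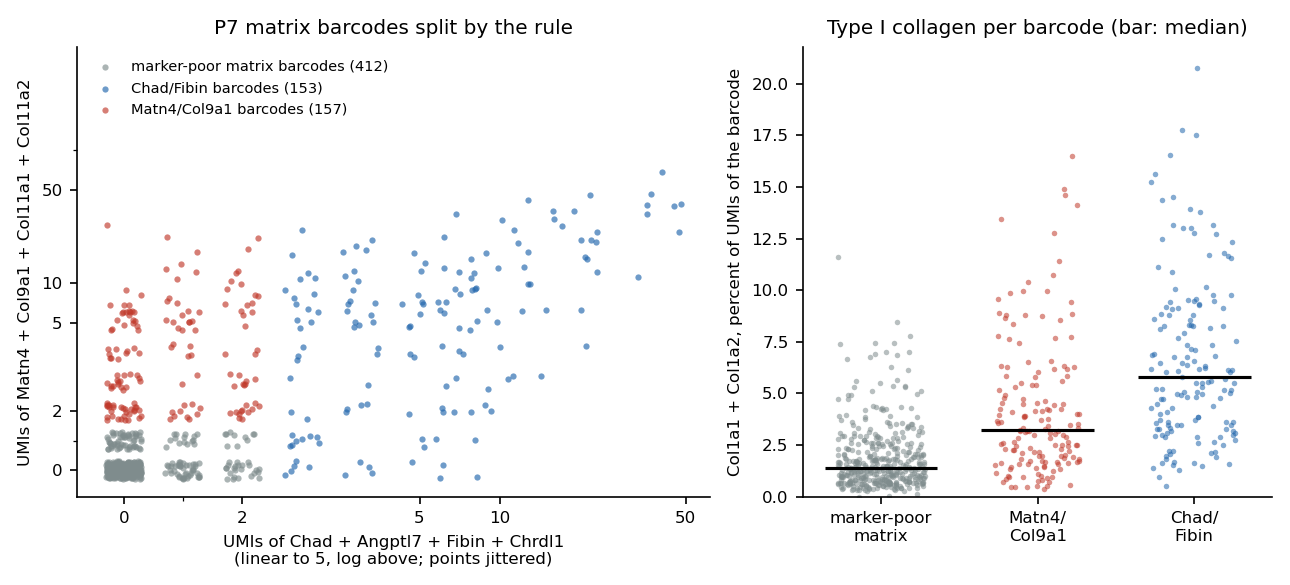
Left, each point is 1 of the 722 P7 matrix barcodes, placed by its UMIs of the Chad set (horizontal) and of the 4 markers (vertical), both axes linear to 5 and logarithmic above. Right, type I collagen as a percentage of the UMIs of each barcode, with the median as a bar: 1.40% in the 412 marker-poor, 3.23% in the 157 Matn4/Col9a1 and 5.77% in the 153 Chad/Fibin barcodes, with wide overlap.

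Col9a1 was the marker most often met among the 157 barcodes, with a UMI in 116 of them. Matn4 had a UMI in 78, Col11a1 in 66 and Col11a2 in 63. Most barcodes showed more than 1 marker: 72 had 2, 32 had 3 and 10 had all 4, while 43 had 1 marker only, 28 of them Col9a1. Barcodes just inside the threshold were common, since the median was 3 marker UMIs and 53 barcodes had exactly 2. These 53 had Col1a2 at 20222 CPM and Prg4 at 1645 CPM. The 83 marker-poor barcodes just outside it, with 1 marker UMI, had 14397 and 1065 CPM, and the 329 with none had 11536 and 556 CPM. The 13 barcodes with 10 or more marker UMIs had Col1a2 at 34082 CPM and Prg4 at 5654 CPM. On the other edge, 39 barcodes had 2 UMIs of the Chad set, with Fmod at 1193 and Comp at 177 CPM. The 20 Chad/Fibin barcodes with 3 such UMIs and at least 2 marker UMIs had 1606 and 220 CPM. Both thresholds therefore cut through a range of values, with no gap at either.

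Summed over the group, Col9a1 stood at 586 CPM (522 to 657), close to its 569 CPM in Chad/Fibin barcodes. Matn4 stood at 285 against 533, Col11a1 at 315 against 812 and Col11a2 at 268 against 531 CPM, so these 3 were lower than in Chad/Fibin barcodes. In marker-poor barcodes the 4 markers summed to 79.1 CPM, and in barcodes under 1% matrix to 19.3 CPM, which gives the level outside matrix barcodes. The Chad set, limited by the rule, reached 148 CPM for Fibin and 9.84 CPM for Chad, which encodes chondroadherin, a cartilage protein.

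**Figure D2:**
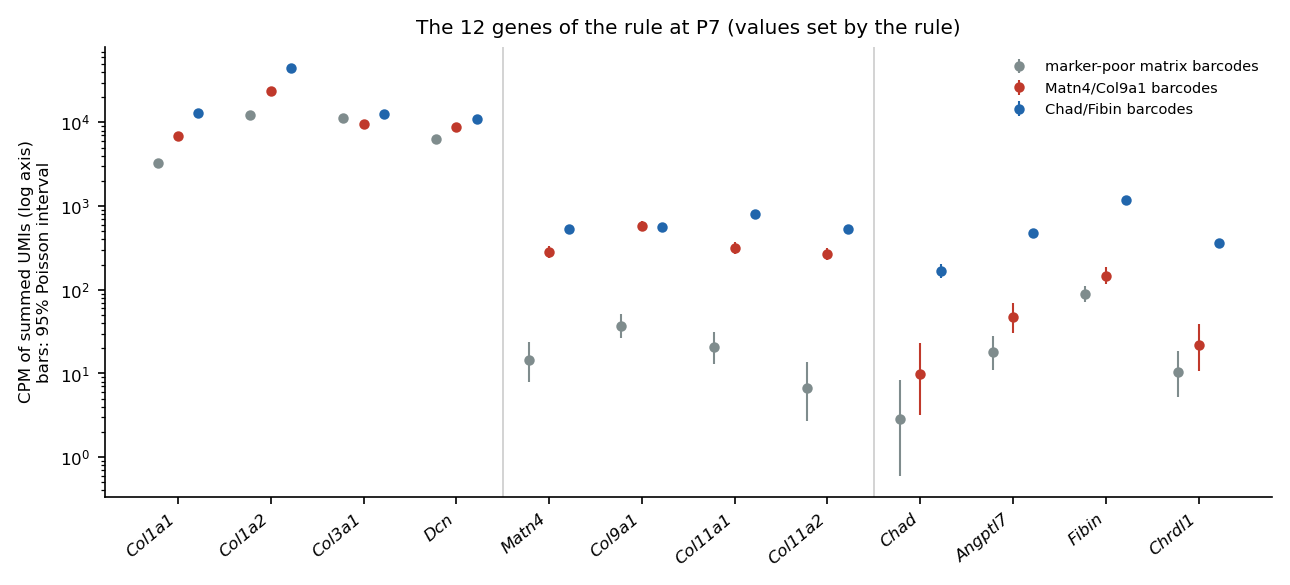
CPM of the 12 genes of the rule in the 3 kinds of P7 matrix barcode on a log axis, with 95% Poisson intervals. The rule set these levels, and the Matn4/Col9a1 barcodes lie between the other 2 kinds for every gene except Col3a1, which is below both, and Col9a1, which is at about the Chad/Fibin level.

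Against all 565 other matrix barcodes, few genes set the Matn4/Col9a1 barcodes apart. A gene is called higher or lower where levels differed at least 2-fold with a ratio interval that excluded equal levels. The level had to reach 20 CPM and 20 UMIs in the higher group. In the 157 barcodes, with 508239 UMIs, 20 UMIs stand for a higher level than in the 565, with 1676317. Numbers of higher and lower genes are therefore not directly comparable, here or between other groups of unequal size below. Of 6002 genes measured, 49 (0.816%) were higher and 161 (2.68%) lower. The median log2 ratio over all 6002 was -0.05. Scaling by the median ratio in place of totals gave 68 and 129, and thinning every barcode to 600 UMIs gave 16 and 104. The higher genes were low in level. Sez6l, a membrane protein best known from neurons, stood at 51.2 against 13.1 CPM, a log2 ratio of 1.96 (1.09 to 2.85), from 26 UMIs in 17 barcodes. Inhba, which encodes the activin A subunit, stood at 167 against 78.1 CPM, a log2 ratio of 1.10 (0.69 to 1.502), and Erbb4, a neuregulin receptor, at 126 against 60.8 CPM (log2 ratio 1.05, 0.58 to 1.51). Dchs1, a large cadherin of the planar polarity pathway, stood at 41.3 against 13.1 CPM (log2 ratio 1.65, 0.72 to 2.59). Also among the 20 named higher were Etl4, Gng2, Usp37, Slc38a1, Snx19, Fam167a, Arl4c, Zfp609, Grlf1, Clspn, Errfi1, Pdzrn4, Aqp1 and Endod1, at log2 ratios between 1.05 and 1.96 over the 20. Top2a, also among the 20, a topoisomerase of dividing cells, stood at 238 against 97.2 CPM (log2 ratio 1.29, 0.94 to 1.64), from 121 UMIs in 17 barcodes, and 1 barcode held 23.1% of them. Without the barcode richest in the gene, 14 of the 20 were still at least 2-fold higher, and Top2a was not, at 0.94. The direction of 6 of these genes did not hold in every alternative: Sez6l (-1.15) and Fam167a (-1.74) changed side with barcodes thinned, Inhba (-0.68), Errfi1 (-1.43), Gng2 (-0.29) and Fam167a (-0.30) with the rule applied to barcodes thinned to 1200 UMIs, and Clspn (-0.022) with at least 5% matrix. Inhba also changed side, at -0.14, without barcodes of other types.

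Genes lower than in all other matrix barcodes could be high in either of the 2 kinds compared. Gucy1a3, a subunit of the nitric oxide receptor guanylate cyclase, stood at 9.84 against 100.2 CPM, a log2 ratio of -3.35 (-4.99 to -2.10), and was at 158 CPM in marker-poor but 3.19 CPM in Chad/Fibin barcodes. Comp, cartilage oligomeric matrix protein, stood at 61.0 against 199.8 CPM (log2 ratio -1.71, -2.29 to -1.18), with the opposite split of 7.63 CPM in marker-poor and 521 CPM in Chad/Fibin barcodes. Aspn, which encodes the small proteoglycan asporin, stood at 234 against 607 CPM (log2 ratio -1.37, -1.66 to -1.10). The mechanosensitive channel Piezo2, Stbd1, the transcription factor Msc, the network collagen Col8a1, Nnmt, the chemokine Cxcl1, Enpp6, the protease inhibitor Serpine2 and Sept4 completed the 12 named. Comp turned to 1.39 with the rule applied to barcodes thinned to 1200 UMIs and to 2.9998 without Chad/Fibin barcodes, Enpp6 to 0.88 with at least 5% matrix, and Aspn to 0.28 and Col8a1 to 0.053 without barcodes of other types. Because the comparison group mixed kinds of opposite direction, the Matn4/Col9a1 barcodes were then compared with each kind in turn. The choice of these 2 comparisons was made after the data were seen.

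Against the 412 marker-poor barcodes, the Matn4/Col9a1 barcodes were higher in Prg4, Fmod, Comp and Cilp2, genes of joint, tendon and cartilage matrix. Of 6367 genes measured, 114 (1.79%) were higher and 266 (4.18%) lower, the median log2 ratio over all was -0.12, median scaling gave 142 and 192, and thinning gave 42 and 133. Prg4, the joint lubricant lubricin, which is on chromosome 1, 150449412 to 150466165, minus strand of mm10, led the higher genes. It stood at 3854 CPM (3686 to 4029) against 661 CPM, a log2 ratio of 2.54 (2.42 to 2.67), had a UMI in 126 of the 157 barcodes, and stood at 16.1 CPM in barcodes under 1% matrix. Fmod, fibromodulin, a small proteoglycan that binds collagen fibrils, stood at 842 CPM (764 to 926) against 180.1 CPM (log2 ratio 2.22, 1.97 to 2.48). Cyp26a1, an enzyme that degrades retinoic acid, stood at 177 against 26.7 CPM (log2 ratio 2.73, 2.10 to 3.40). Col8a2, a chain of the network-forming collagen VIII, stood at 43.3 against 3.81 CPM (log2 ratio 3.51, 1.95 to 5.50), from 22 UMIs.

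The secreted Wnt inhibitor Wif1 stood at 708 against 222 CPM (log2 ratio 1.67, 1.43 to 1.92). Htra1, a serine protease that cuts matrix proteins, stood at 889 against 289 CPM (log2 ratio 1.62, 1.41 to 1.84). Prelp, another collagen-binding small proteoglycan, stood at 698 against 246 CPM (log2 ratio 1.51, 1.27 to 1.74), and Abi3bp, a matrix protein, at 1027 against 374 CPM (log2 ratio 1.46, 1.27 to 1.65). Comp was here higher, at a log2 ratio of 2.9998 (1.85 to 4.33), and so was Cilp2, a cartilage intermediate layer protein, at 2.78 (1.41 to 4.39). Serpinb1a, Pamr1, Sdk2, Pdzrn4, Lsamp, Pi16, Fxyd6, Crispld2, Shisa2 and Zfp185 completed the 20, whose log2 ratios ran from 1.46 to 3.51. All 20 stayed at least 2-fold higher without the barcode richest in the gene.

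The same order was seen barcode by barcode. Prg4 had a UMI in 80.3% (73.2% to 86.2%) of Matn4/Col9a1, 29.4% (25.01% to 34.0%) of marker-poor and 91.5% (85.9% to 95.4%) of Chad/Fibin barcodes. In the 239 barcodes under 1% matrix, at a median of 2208 UMIs, it was 6.28%, given as the level outside matrix barcodes. Their matrix share ran up to 0.996%, and free transcripts were not measured apart. With every barcode thinned to 600 UMIs these shares of Prg4 were 62.4%, 20.5%, 79.5% and 1.80%, in the same order. Fmod had a UMI in 65.6%, 24.5% and 94.8% of the 3 kinds, or 38.6%, 11.3% and 68.7% thinned, with 2.09% under 1% matrix. Wif1 had a UMI in 54.8%, 21.4% and 73.2%, or 27.2%, 10.9% and 39.7% thinned, with 4.18% (1.61% thinned) under 1% matrix. Sox9, a transcription factor of cartilage and valve progenitors, differed less between the kinds, at 58.6%, 43.7% and 69.3% before and 25.5%, 18.2% and 24.6% after thinning, with 7.95% and 2.52% under 1% matrix.

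The genes lower than in marker-poor barcodes included Gucy1a3, the chemokine gene Cxcl1 and Col4a1. Gucy1a3 stood at 9.84 against 158 CPM (log2 ratio -4.01, -5.65 to -2.76), with 5 UMIs in 3 of the 157 barcodes. Cxcl1 stood at 53.1 against 284 CPM (log2 ratio -2.42, -3.04 to -1.85) and Serpine2 at 53.1 against 274 CPM (log2 ratio -2.36, -2.99 to -1.79). Col4a1, a chain of basement membrane collagen IV, stood at 122 against 473 CPM (log2 ratio -1.95, -2.36 to -1.57). The other chain of collagen VIII, Col8a1, differed in the direction opposite to Col8a2, at 11.8 against 98.2 CPM (log2 ratio -3.06, -4.54 to -1.88). Stbd1 had no UMI in the 157 barcodes and stood at 32.4 CPM in marker-poor barcodes, at least 2.46 lower on the log2 scale at a floor of 3 UMIs over the group. Piezo2, Msc, Enpp6, Sept4, the kinase Bmx and the matrix protein Spon1 completed the 12.

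**Figure D3:**
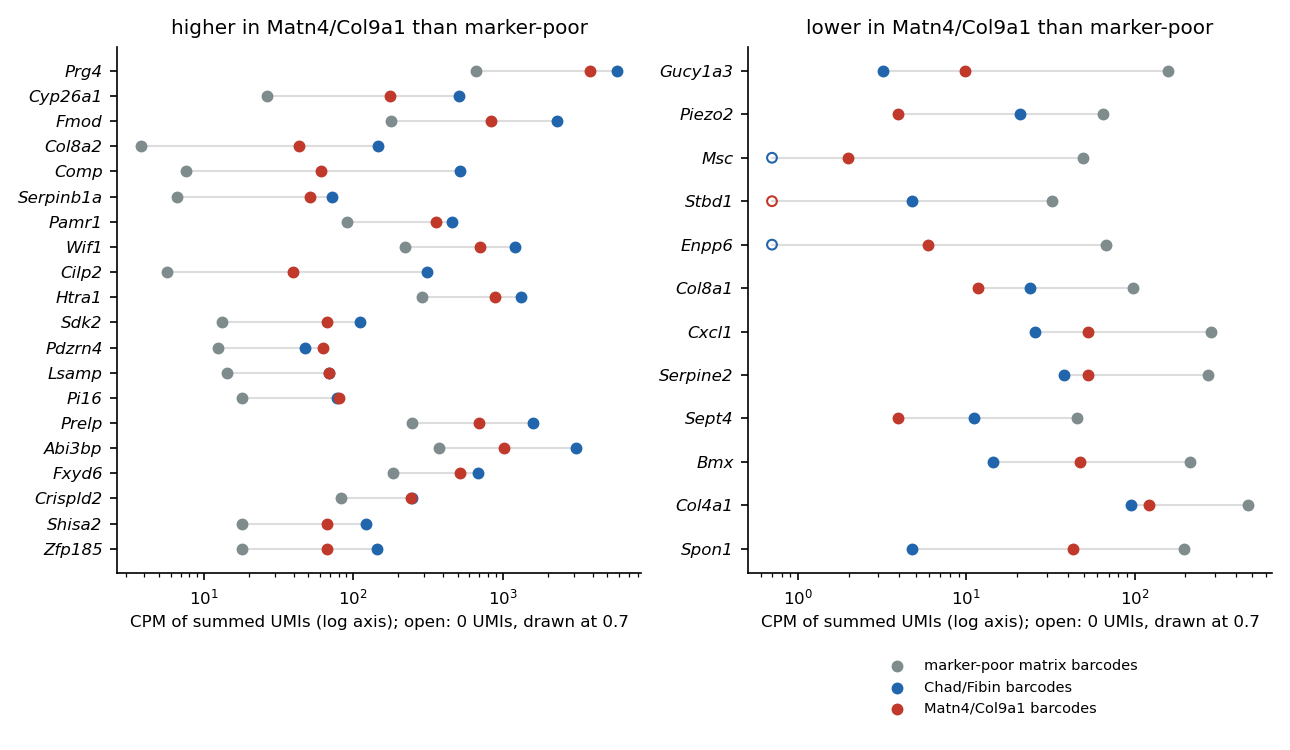
CPM on a log axis of the 20 genes named as higher (left) and 12 as lower (right) in Matn4/Col9a1 than in marker-poor barcodes, in all 3 kinds of P7 matrix barcode; open circles mark 0 UMIs. Most red points, the Matn4/Col9a1 barcodes, lie between the grey marker-poor and the blue Chad/Fibin points, as for Prg4 with 661 CPM in marker-poor, 3854 in Matn4/Col9a1 and 5861 in Chad/Fibin barcodes.

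Against the 153 Chad/Fibin barcodes, Comp, Cilp2 and Abi3bp, higher than in marker-poor barcodes, were lower. Of 5077 genes measured, 277 (5.46%) were higher and 147 (2.9%) lower, the median log2 ratio over all was 0.12, median scaling gave 204 and 196, and thinning gave 54 and 39. Comp stood at 61.0 against 521 CPM, a log2 ratio of -3.10 (-3.68 to -2.56), Cilp2 at -2.98 (-3.72 to -2.32) and Aspn at -2.20 (-2.498 to -1.92). Thbs4, a thrombospondin of tendon, stood at 15.7 against 94.1 CPM (log2 ratio -2.58, -3.86 to -1.51), and Ogn, the small proteoglycan osteoglycin, at 185 against 625 CPM (log2 ratio -1.76, -2.10 to -1.43). Sfrp2, a secreted Wnt modulator, stood at 1599.6 against 4555 CPM (log2 ratio -1.51, -1.62 to -1.40). Abi3bp, Serpinb6b, C1qtnf3, Clec3a and Omd were also named as lower. The melanocyte enzyme gene Dct met the naming rule too, but 1 Chad/Fibin barcode held 89.6% of its UMIs in that group, and without it the log2 ratio was -0.05.

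Many genes higher than in Chad/Fibin barcodes were also carried by marker-poor barcodes. Adamts19, a secreted metalloprotease, stood at 249.9 against 47.8 CPM (log2 ratio 2.39, 1.80 to 3.01), and at 173 CPM in marker-poor barcodes. Notch1 stood at 116 against 22.3 CPM (log2 ratio 2.38, 1.52 to 3.33), and Rgs5, a regulator of G-protein signalling often used as a pericyte marker, at 244 against 55.8 CPM (log2 ratio 2.13, 1.58 to 2.71). The 11 mural markers, which include Rgs5, summed to 726 CPM against 806 in marker-poor and 419 in Chad/Fibin barcodes, with Myh11, Des and Higd1b at 0 in the 157. The part of mural cells in the Rgs5 level was not tested. Barcodes with 3 or more UMIs of endothelial, macrophage or melanocyte markers were 14.6% of Matn4/Col9a1, 11.7% of marker-poor and 18.3% of Chad/Fibin barcodes. The part of such cells in the levels of Notch1 and the other genes named here was not tested either. Angpt1, an angiopoietin, stood at 275 against 74.9 CPM (log2 ratio 1.88, 1.39 to 2.39), and Kitl, the Kit ligand that melanocytes need, at 205 against 54.2 CPM (log2 ratio 1.92, 1.345 to 2.52). Clca1 stood at 98.4 CPM, between 7.97 CPM in Chad/Fibin and 260.2 CPM in marker-poor barcodes. Sez6l, St6galnac2, Gas7, Garnl3, Stxbp6, Tmem100, G2e3, Gng2, Sele, Mki67, Cttnbp2, Clca2, Spon1 and Atp1b1 completed the 20, whose log2 ratios ran from 1.88 to 5.004. St6galnac2 (0.38), Sele (0.77), Gng2 (0.96) and Tmem100 (0.96) fell under 2-fold in 1 of 6 alternatives each. The others of the 20 stayed at least 2-fold higher in every alternative with a usable fold.

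Among genes that differed between the 2 other kinds, the Matn4/Col9a1 level mostly lay between them. Leaving out the genes of the rule, 249 genes were called higher in Chad/Fibin than in marker-poor barcodes, and the Matn4/Col9a1 level lay between the 2 for 211 of them (84.7%). Of 708 genes called lower, it lay between for 557 (78.7%). In that comparison 3.8% of 6810 genes were called higher and 10.4% lower, shares that do not tell how often a level would lie between. The Matn4/Col9a1 barcodes were nearer to marker-poor barcodes for 134 of the 249 and 459 of the 708. These counts describe a rule that itself bounded the Chad set and the markers between the 2 kinds. The genes were also picked for a difference between the 2 kinds in this same library, so another group of matrix barcodes could often lie between. No share for such a group was worked out, and the counts are a description only.

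The other genes are given by list, and each count of called genes stands against the share over all genes: 1.79% higher and 4.18% lower against marker-poor, and 5.46% higher and 2.9% lower against Chad/Fibin barcodes. Of 27 genes on the cartilage matrix list, 19 lay outside the rule and were in the table, and 8 were measured against marker-poor barcodes. Comp, Cilp2 and Papss2, an enzyme that supplies sulfate for proteoglycans, were higher, and Matn2, another matrilin, was lower, with a median log2 ratio of 0.88 over the 8. Against Chad/Fibin barcodes 12 were measured and 8 were lower, Acan, Comp, Cilp, Cilp2, Ucma, Cytl1, Mgp and Col2a1, with Matn2 higher and a median of -1.62. Aggrecan (Acan) stood at 1.91, 23.6 and 74.9 CPM in marker-poor, Matn4/Col9a1 and Chad/Fibin barcodes. Col2a1, the main collagen of cartilage, was at 7.87 CPM in the Matn4/Col9a1 barcodes, from 4 UMIs.

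Of 7 small leucine-rich proteoglycans measured, Fmod and Prelp were higher than in marker-poor barcodes, and the log2 ratios of the 7 ran from -0.47 to 2.22 (median 0.39). Against Chad/Fibin barcodes 5 of 8 were lower (Fmod, Prelp, Ogn, Omd and Aspn, median -1.33). On the tendon list, Scx, the transcription factor of tendon progenitors, stood at 72.8 against 31.5 CPM in marker-poor barcodes (log2 ratio 1.21, 0.49 to 1.93). With Fmod it made 2 of 7 higher (median 0.01, below 0 in 1 of 6 alternatives), and 5 of 9 were lower than in Chad/Fibin barcodes (Thbs4, Fmod, Kcnt2, Tnc and Clec3a, median -1.16). Of 25 skeletal and valve transcription factors measured, 2 were higher than in marker-poor barcodes and 1 lower, where 1.79% and 4.18% of all genes were called. Sox6, a partner of SOX9, was higher at a log2 ratio of 1.42 (0.53 to 2.34), Scx was higher and Tcf21 lower. Counts of 2 and 1 are too few to set the list apart from these shares. Sox9 itself was not called, at 509.6, 391.8 and 474 CPM in Matn4/Col9a1, marker-poor and Chad/Fibin barcodes. Among elastic fibre genes, Mfap5 and Ltbp2 were higher than in marker-poor barcodes (2 of 17, median 0.32), with elastin (Eln) at 100.3 against 172 CPM and not called.

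None of the genes for making collagen was called against marker-poor barcodes, where 1.79% and 4.18% of all genes were called, so lists of this size would hold few called genes at that share. For 22 genes for procollagen folding and hydroxylation, 21 endoplasmic reticulum chaperones and 15 genes for procollagen export, cleavage and crosslinking, the medians were 0.23, -0.02 and 0.03, and the last 2 changed sign in 2 of 6 alternatives each. Serpinh1, the collagen chaperone HSP47, stood at 970.0, 976 and 1076 CPM in Matn4/Col9a1, marker-poor and Chad/Fibin barcodes. Of the 4 fibrillar collagens measured outside the rule none was called, with a median of 0.48. The type V chain Col5a2 stood at 2076 against 1225 CPM (log2 ratio 0.76, 0.64 to 0.88). Against Chad/Fibin barcodes, P4ha2 and Fkbp14 of 20 folding and hydroxylation genes were lower (median -0.31). Pcolce2 and Loxl3 of 15 export, cleavage and crosslinking genes were lower too (median -0.38). Both medians were below 0 in all 6 alternatives. None of 21 chaperones was called (median 0.04), where 5.46% of all genes were higher and 2.9% lower.

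Of 15 basement membrane genes, Col4a1, Col18a1 and Lamc1 were lower than in marker-poor barcodes (median -0.70), where 4.18% of all genes were lower. Against Chad/Fibin barcodes Col4a2 and Col18a1 were higher and Col4a4 lower, of 14 (median 0.25, from -1.13 to 1.51). Of 10 complement and chemokine genes, Serping1, Cxcl1 and Ccl2 were lower than in marker-poor barcodes and the alarmin Il33 higher, with a median of -1.02. Of 13 imprinted growth genes, H19, Dlk1 and Cdkn1c were lower than in marker-poor barcodes (median -0.31). Genes of the cell cycle list were higher than in Chad/Fibin barcodes in 5 of 14 (Mki67, Top2a, Mcm3, Mcm7 and Ccnd1, median 0.79). Mki67 UMIs came from 13 of the 157 barcodes, and the list median ran from -0.04 to 1.08 over 6 alternatives, below 0 in 1.

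**Figure D4:**
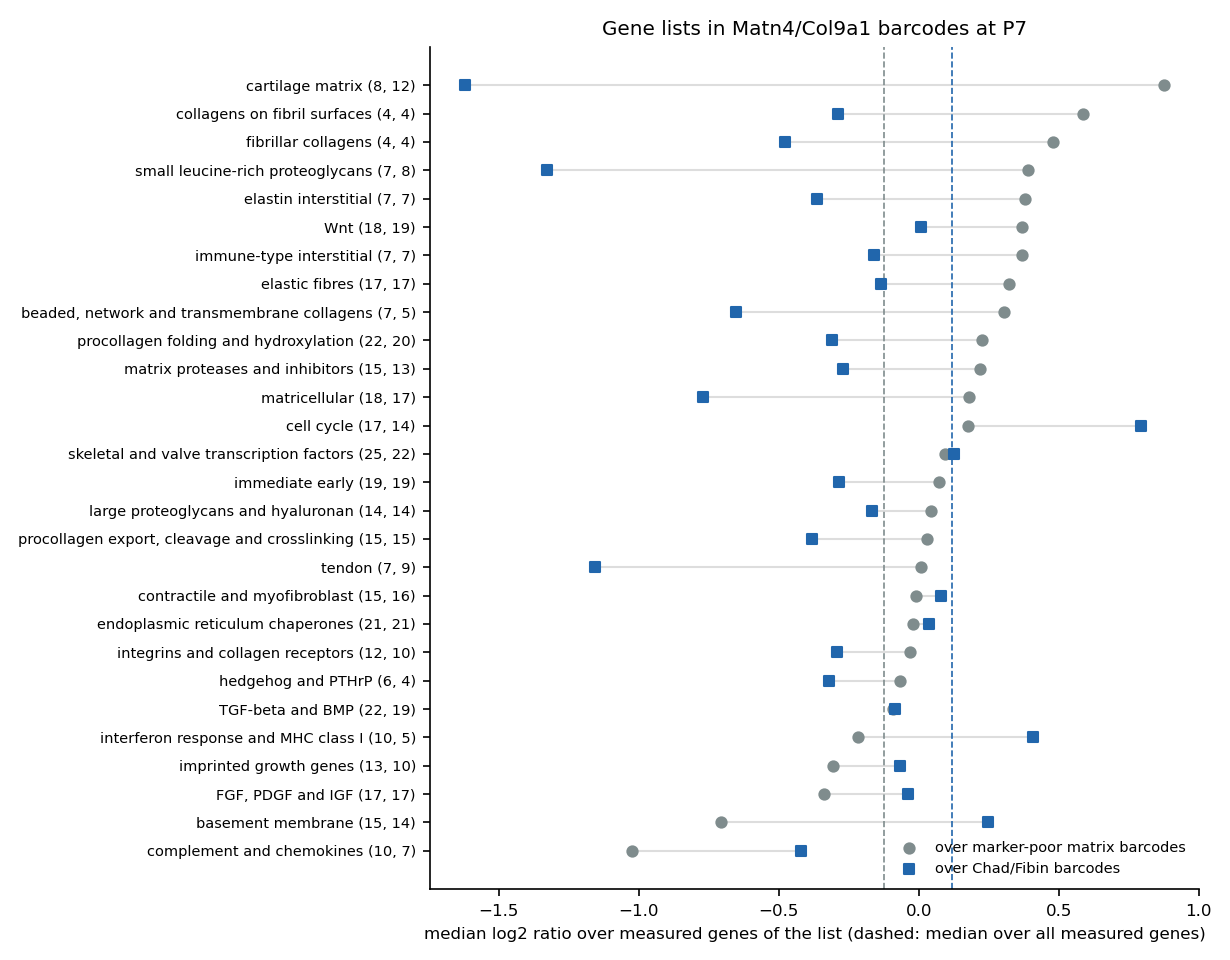
Median log2 ratio of each gene list in Matn4/Col9a1 barcodes over marker-poor (grey circles) and over Chad/Fibin barcodes (blue squares), with the numbers of genes measured in brackets and the median over all measured genes as dashed lines. The 2 symbols lie farthest apart for the cartilage matrix list, at 0.88 and -1.62.

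Grouping by all other genes did not gather the Matn4/Col9a1 barcodes. The 722 matrix barcodes were clustered without the 12 genes of the rule, which gave 7 clusters, and all 7 held some of the 157. At clustering resolution 0.8, the most, 42 (26.8%, exact interval 20.01% to 34.4%), fell in the cluster that held 72.5% of the Chad/Fibin barcodes. Col1a2 stood at 45818 CPM in that cluster. A further 33 each fell in 2 clusters of low depth, with medians of 1166 and 1695 UMIs. The remaining clusters held 21, 14, 9 and 5. The 14 were in the cluster of dividing cells, where Mki67 stood at 1248 CPM. In the 2 clusters with the largest shares of marker-poor barcodes, 23.3% and 22.8% of them, the Matn4/Col9a1 barcodes numbered 5 and 9. Their share within a cluster was 25.1% to 32.8% in 5 clusters and 4.85% and 8.57% in these 2. Which cluster held the most of the 157 changed with the resolution. At 0.5, the cluster richest in Chad/Fibin barcodes held 35, a cluster of low depth also held 35, and 2 others held 34 each. At 1.2, the cluster richest in Chad/Fibin barcodes held 28 (17.8%), fewer than the 34 and 33 in 2 other clusters.

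At P30, the library the rule did not use, 103 of 2846 matrix barcodes met the same rule, or 3.62% (exact binomial interval 2.96% to 4.37%), against 157 of 722, or 21.7% (18.8% to 24.9%), at P7. The P30 matrix barcodes were deeper, with a median of 2546.5 against 2241 UMIs. With every barcode thinned to 600 UMIs the shares were 0.927% at P30 (0.702% to 1.23% over 20 draws) and 13.7% at P7 (11.9% to 15.1%). Col9a1 stood at 147 CPM in the 103 P30 barcodes against 586 in the 157 at P7, Matn4 at 137 against 285 and Col1a2 at 10692 against 24032. Of the 103, 7 had 4 or more marker UMIs, against 77 of the 157. Age and sequencing run cannot be told apart here.

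The genes that differed from marker-poor barcodes at P7 mostly leaned the same way at P30, by smaller amounts for the 20 named as higher. Of 108 genes called higher at P7 outside the rule, 72 were measured at P30, and 55 (76.4%) were on the same side there, against 48.7% of genes not called. Of 266 called lower, 129 were measured and 114 (88.4%) were on the same side, against 67.5%. At P30, 41 genes (0.826%) were called higher and 148 (2.98%) lower of 4963. Fmod stood at 609 against 209 CPM, a log2 ratio of 1.55 (1.34 to 1.75), Cyp26a1 at 1.41 (0.94 to 1.86), Htra1 at 1.15 (0.88 to 1.40), Cilp2 at 1.54 (0.76 to 2.26) and Comp at 1.09 (0.80 to 1.37), all called again. Prg4 was higher in both groups at P30, at 7653 against 3980.4 CPM, and its log2 ratio of 0.94 (0.89 to 0.998) fell short of 2-fold. Gucy1a3 was called lower again at -2.41 (-4.04 to -1.17), whereas Piezo2 stood at -0.07 (-1.05 to 0.78). The 17 genes called higher against all other matrix barcodes at P7 and measured at P30 did not lean this way: 4 (23.5%) were on the same side, against 48.4% of other genes, where 28 of 4851 genes (0.577%) were called higher and 116 (2.39%) lower at P30. Of 142 genes lower than in Chad/Fibin barcodes at P7 outside the rule, 107 were measured at P30, and 98 (91.6%) were on the same side, against 58.1% of genes not called. Of 277 higher, 144 were measured and 90 (62.5%) were on the same side, against 54.5%. In the same P30 barcodes the 12 macrophage markers summed to 369 CPM against 211 in marker-poor barcodes, with Cx3cr1 called higher and Ptprc at 0. The 8 erythroid markers summed to 1397 against 3404 CPM, with all 4 haemoglobin genes measured lower. The 14 endothelial markers summed to 259 against 407 CPM, with Pecam1 and Plvap lower and Cdh5, Kdr, Vwf, Cldn5 and Esam at 0. The part of these cells in the P30 values was not tested. At P30, 75 (1.59%) were called higher and 130 (2.76%) lower than in Chad/Fibin barcodes, of 4715.

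**Figure D5:**
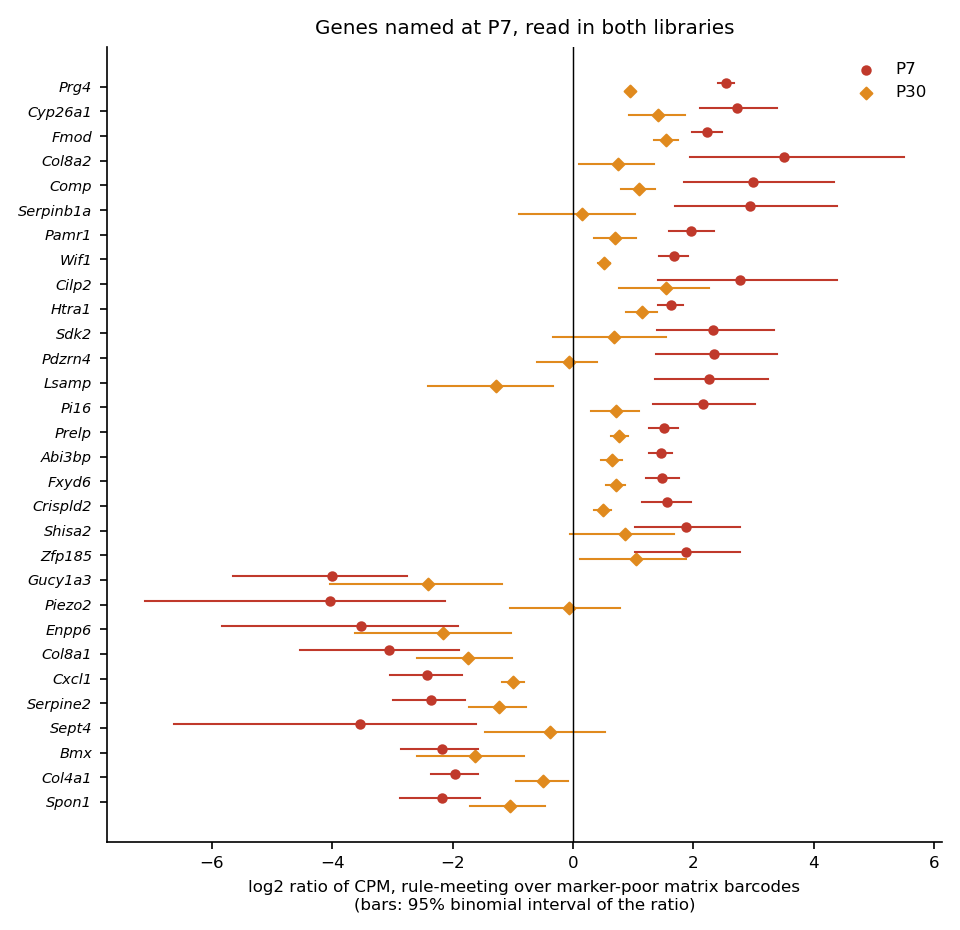
Log2 ratio of CPM between barcodes meeting the rule and marker-poor barcodes, with 95% binomial intervals, at P7 (red circles) and P30 (orange diamonds), for the genes named at P7 that were present in both tables. Fmod, Cilp2, Cyp26a1, Htra1, Comp and Zfp185 stay above 1, the other genes named as higher lie below 1 at P30, and Lsamp is on the other side.

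Between the ages, the P7 barcodes were higher in genes of the cell cycle and elastic fibre lists and lower in the interferon list. Of 4618 genes measured, 766 (16.6%) were higher and 317 (6.86%) lower at P7, at a median log2 ratio of 0.25. Scaling by the median ratio moved that median to 0.022 and gave 507 and 517. The other matrix barcodes gave 14.1% higher and 4.6% lower of 7087 genes, so the share called was of similar size outside the Matn4/Col9a1 barcodes. Of 17 elastic fibre genes measured, 9 were higher at P7, among them Eln, Fbn1, Fbn2 and Lox, and Fbln1 and Mfap5 were lower (median 1.02). Of 14 cell cycle genes 9 were higher and none lower (median 1.23). Of 15 interferon and MHC class I genes 13 were lower and none higher, with a median of -3.43 where genes at 0 were set at the floor. The 3 fibrillar collagens measured outside the rule, Col5a1, Col5a2 and Col27a1, were all higher at P7 (median 1.65). Of 10 cartilage matrix genes, Comp, Cilp, Ucma, Cytl1 and Mgp were lower at P7 and Col9a3 higher (median -1.18). Markers of other cell types moved with age in the same barcodes. Macrophage markers summed to 39.4 CPM at P7 and 369 at P30, with C1qb, Lyz2 and Cx3cr1, all 3 measured, lower at P7 (median -3.01). The lymphoid and dendritic list summed to 112 and 372 CPM, with the MHC class II genes H2-Aa, H2-Ab1 and H2-Eb1 and their chaperone Cd74, all 4 measured, lower at P7 (median -1.68). Erythroid markers summed to 9873 and 1397 CPM, with all 4 haemoglobin genes measured higher at P7 (median 2.91). The part of these cells in the differences with age was not tested. Sfrp2 stood at 1599.6 against 125 CPM, a log2 ratio of 3.68 (3.27 to 4.12). Fbn2, a fibrillin of developing tissue, stood at 445 against 36.7 CPM (log2 ratio 3.60, 2.85 to 4.46), and Nrep at 3.31 (2.79 to 3.88). The dividing-cell genes Top2a (log2 ratio 5.60, 3.72 to 8.67), Mki67 (log2 ratio 5.39, 3.497 to 8.45) and Prc1 (log2 ratio 5.52, 2.98 to 10.85) rested on 2, 2 and 1 UMIs at P30. Lower at P7 were the interferon-response genes Ifit3 (log2 ratio -6.29, -11.62 to -3.76) and H2-K1 (log2 ratio -4.92, -7.23 to -3.32), with 1 and 3 UMIs at P7, the protease Mmp3 (log2 ratio -4.20, -5.36 to -3.23) and Cxcl1 (log2 ratio -3.47, -4.10 to -2.89). Ifi27l2a had no UMI at P7 and stood at 401 CPM at P30, at least 6.09 lower on the log2 scale at the floor of 3 UMIs. Ly6e, the metallothionein Mt1 and the small nucleolar RNA Snord13 were also lower. Several near-identical Hist1h2a histone genes were among the 20 named as higher at P7, and reads of such copies cannot be assigned to 1 gene.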

How the data were processed

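Drop-seq UMI counts per gene and barcode, deposited by the authors as whole numbers without normalization, were used for 1 P7 and 1 P30 library. The deposited normalized tables were not used. Per the submitters' processing notes, the build was mm10 and Bowtie2 2.2.7 was among the tools, with its role unstated. Which program counted UMIs, and on which annotation, is not given in the sources used here. Every barcode in both tables had at least 500 detected genes. No barcode was removed, and no doublet caller was run, so doublets remain. Because the depth is that of single barcodes, counts were summed per group: 508239 UMIs in the 157 barcodes, 1049137 in marker-poor and 627180 in Chad/Fibin barcodes, of 3116184 at P7 and 11267724 at P30.

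Intervals at 95% are exact: Poisson for a level, binomial for a ratio (given the sum of both counts) and Clopper-Pearson for a share. A gene with no UMI in a group was set at a floor of 3 UMIs. Droplet PCR and capture add error that these intervals do not cover. Genes named are the 20 higher and 12 lower whose ratio intervals stayed farthest from equal levels at their nearer bound, leaving out rule, mitochondrial, ribosomal protein, haemoglobin and unnamed genes; others are named within the 29 gene lists. A gene that met this rule is not reported here. Between the ages the same rule was used. Members and lists were chosen with earlier results of these data known. Clusters used scanpy 1.11.5 with 2000 variable genes, 20 principal components, 15 neighbours and the Leiden algorithm at resolution 0.8 (0.5 and 1.2 tried). Alternatives varied depth, thresholds, weights, scaling and filters. The group comparison was tested on simulated Poisson counts with planted changes. Those counts held no spread between barcodes, and the rule, thinning and clusters were not simulated. Gene positions come from GENCODE M21. Python 3.11.15, numpy 2.4.6, pandas 2.3.3, scipy 1.17.1 and matplotlib 3.10.9 were used.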

Additional observations from a re-analysis of the deposited data

Results flagged for a closer look

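Some genes were called in opposite directions in the 2 libraries, higher at P7 and lower at P30 in the barcodes that meet the rule. None of these differences between libraries was tested, and age and sequencing run cannot be told apart. Top2a was higher at P7 at log2 ratios of 1.29 over all other, 1.12 over marker-poor and 1.64 over Chad/Fibin barcodes. At P30 it had 2 UMIs in the 103 barcodes, at -3.998 (-7.05 to -2.14), -3.95 (-7.005 to -2.09) and -4.07 (-7.12 to -2.20) in the same order. Over Chad/Fibin barcodes, Mki67 stood at 2.10 at P7 and at -2.65 (-5.72 to -0.76) at P30, Prc1 at 1.55 and -4.02 (-9.33 to -1.51), Incenp at 1.07 and -3.10 (-8.43 to -0.57), Hist1h2ao at 1.30 and -2.29 (-5.37 to -0.39), and Hist1h2ap at 1.27 and -2.39 (-5.46 to -0.49). These 5 had 1 or 2 UMIs each in the P30 barcodes. Over marker-poor barcodes, Lsamp, a cell adhesion protein, stood at 2.27 at P7 (35 UMIs) and -1.27 (-2.41 to -0.32) at P30 (9 UMIs). Rnf5, a ubiquitin ligase, stood at 1.32 at P7 (23 UMIs) and -1.12 (-2.45 to -0.045) at P30 (7 UMIs), where the interval nearly reached equal levels.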

How the results depend on the processing

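Counts of genes depended on depth, on the barcodes compared and on the filter. Against all other matrix barcodes, 49 higher and 161 lower genes became 16 and 104 with every barcode thinned to 600 UMIs, 114 and 266 without Chad/Fibin barcodes, and 4 and 20 at a minimum of 100 CPM. Lower genes numbered 287 with the rule applied at 1200 UMIs and 364 with barcodes weighted equally. Higher genes numbered 189 at a minimum of 5 CPM and 12 without barcodes holding 3 or more UMIs of endothelial, macrophage, melanocyte or erythroid markers. That last alternative left 19 of the 157 barcodes, because most hold haemoglobin UMIs. An alternative that kept blood markers, chosen after seeing the data, removed 23 of the 157 and gave 51 and 164. Thinning gave 42 and 133 genes against marker-poor and 54 and 39 against Chad/Fibin barcodes. Weighting barcodes equally gave 492 lower against marker-poor barcodes, and 4 or more marker UMIs gave 143 higher against Chad/Fibin barcodes. Between the ages, median scaling gave 507 and 517. The share meeting the rule at P7 was 10.7% with 4 marker UMIs, 27.6% with 5% matrix and 13.7% thinned, and at P30 0.246% with 4 marker UMIs and 0.927% thinned. Named genes changed side in 13 recomputed values. Against all other matrix barcodes these were Sez6l (-1.15) and Fam167a (-1.74) thinned; Gng2 (-0.29), Inhba (-0.68), Fam167a (-0.30), Errfi1 (-1.43) and Comp (1.39) with the rule at 1200 UMIs; Comp (2.9998) without Chad/Fibin barcodes; Clspn (-0.022) and Enpp6 (0.88) with 5% matrix; and Inhba (-0.14), Col8a1 (0.053) and Aspn (0.28) without barcodes of other types. The cause of these changes was not tested, except that removing Chad/Fibin barcodes removes those rich in Comp. Another 97 recomputed values of named genes moved without changing side, and 664 stayed the same. Over marker-poor barcodes, Msc (-0.19), Sept4 (-0.02), Stbd1 (-0.61) and Crispld2 (0.85) fell under 2-fold in 1 of 6 alternatives each. Over Chad/Fibin barcodes Clec3a (-0.45), Omd (-0.45) and Sfrp2 (-0.97) did so among the lower genes. A further 26 recomputed values gave no usable fold, as counts were at or under the floor. Levels near 20 CPM rest on about 10 UMIs in the 157 barcodes, which limits what can be seen. No paired analysis was possible because each age had 1 library and the replicate number only names it.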

Other observations

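A small set of genes was higher or lower in the Matn4/Col9a1 barcodes than in both other kinds of P7 matrix barcode. Of 4860 genes measured in both comparisons, 21 were above both and 9 below both. All were chosen by this criterion after the data were seen. Above both stood Dchs1 at 41.3 CPM against 15.3 in marker-poor and 9.57 in Chad/Fibin barcodes. Gfra1, a receptor component for GDNF, stood at 41.3 against 20.02 and 11.2 CPM, and Tenm4, a teneurin, at 43.3 against 21.0 and 12.8 CPM. The replication genes Clspn, Blm and Rpa1 stood at 68.9, 41.3 and 39.4 CPM, from 13, 11 and 15 barcodes. The barcode richest in the gene held 9 of 22 UMIs for Tenm4, 7 of 35 for Clspn and 5 of 21 for Blm. It held 4 of 20 for Rpa1, 4 of 21 for Gfra1 and 2 of 21 for Dchs1. Whether these genes stay at least 2-fold above both kinds without that barcode was not tested. Below both stood Gadd45g, a stress-response gene, at 27.5 against 69.6 and 102 CPM, and Nrk, a kinase, at 25.6 against 57.2 and 82.9 CPM. With the exception of Top2a, the 21 genes rested on 20 to 46 UMIs each in the Matn4/Col9a1 barcodes.

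Wnt pathway genes split between the 2 comparisons. Against marker-poor barcodes the secreted inhibitors Wif1 and Frzb were higher, Frzb at 59.0 against 27.6 CPM, and none of 18 measured was lower (median log2 ratio 0.37). Against Chad/Fibin barcodes Wnt16, Lef1, Tcf7l2 and Rspo3 were higher and Fzd6 and Sfrp2 lower, of 19 measured (median 0.01, below 0 in 4 of 6 alternatives). Over all genes, 1.79% were higher and 4.18% lower than in marker-poor barcodes, and 5.46% and 2.9% than in Chad/Fibin barcodes. Wnt16 stood at 259.7 against 135 and 128 CPM in marker-poor and Chad/Fibin barcodes, and Lef1, a factor that acts with beta-catenin, at 51.2 against 40.03 and 9.57 CPM. Fgf9, a secreted growth factor, stood at 41.3 CPM, between 15.3 in marker-poor and 112 in Chad/Fibin barcodes. Igfbp3, which binds insulin-like growth factors, showed the reverse order, at 72.8 against 222 and 19.1 CPM. Vcan, the large proteoglycan versican, stood at 1829.8 against 1541 and 692 CPM.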
